A study of Homo sapiens with 18 samples.

Results

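The genes described here are 10 enzymes and cofactors of fatty acid synthesis and desaturation, taken by symbol from a table of 63241 genes, namely ACLY, ACACA, FASN, SCD, ELOVL5, ELOVL6, FADS1, FADS2, ACSS2 and THRSP. Each symbol matched 1 row. Poly(A) RNA was counted in 18 libraries, 3 in each of 6 groups. LNCaP, a prostate cancer line that originated in a lymph node metastasis, had been given genistein at 10 or 20 µM or baicalein at 10 or 20 µM for 24 h, or were untreated, and PC-3, a line from a bone metastasis, was untreated. The sample labels call the control cells untreated, whereas the treatment protocol describes a DMSO vehicle. All groups are labelled wild type and grew in the same serum-containing medium. The 2 flavonoids are plant-derived isomers, genistein of the isoflavone and baicalein of the flavone class, and they differ in the carbon at which the phenyl ring is attached and in the placement of their hydroxyl groups. Separate cultures are not stated for the replicates, and the spread behind each p-value may therefore be technical.

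Fatty acids are built in the cytosol from acetyl-CoA. ACLY makes acetyl-CoA from citrate and ACSS2 makes it from acetate. ACACA carboxylates it to malonyl-CoA, the rate-limiting step, and FASN assembles palmitate from these units. THRSP is a small protein that promotes lipogenesis in liver and fat. ELOVL6 lengthens palmitate to stearate, and SCD places a double bond in these saturated chains. ELOVL5, FADS2 and FADS1 lengthen and desaturate polyunsaturated chains, with FADS2 acting as the delta-6 and FADS1 as the delta-5 desaturase. Most of these genes are known targets of the sterol regulatory element binding proteins, and lipogenesis is known to be induced by androgen in prostate cancer cells.

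On GRCh38, with the coordinates deposited beside the counts, ACLY lies on chromosome 17 (41866917 to 41930542, minus strand), as do ACACA (37084992 to 37406836, minus) and FASN (82078338 to 82098294, minus). SCD lies on chromosome 10 (100347233 to 100364826, plus), ELOVL5 on chromosome 6 (53267398 to 53349179, minus) and ELOVL6 on chromosome 4 (110045846 to 110199199, minus). FADS1 (61799627 to 61829318, minus) and FADS2 (61792980 to 61867354, plus) overlap on chromosome 11, and THRSP lies on the same chromosome (78063861 to 78068351, plus). ACSS2 lies on chromosome 20 (34872146 to 34927962, plus). The deposited spans of ACLY, ACACA, FASN, SCD and FADS1 differ from those of GENCODE 29. In GENCODE 29, exons of FADS1 and FADS2 share 490 bases on opposite strands, 4.79% of the FADS1 exon length and 4.44% of that of FADS2. The library kit does not mark strand, so reads from these bases cannot be assigned to either gene. Exons of THRSP share 48 bases with those of NDUFC2 on the opposite strand, and NDUFC2 had 39679 counts over the 18 libraries, so the few THRSP counts are uncertain.

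Promoter sequence from RefSeq (GRCh38.p14) was matched for 9 of the 10 genes, in 14 windows of 250 bases before an annotated start. The stretches outside annotated exons are shown for SCD, ACLY, ACSS2 and ELOVL6, which all rose with genistein at 20 µM, whereas with baicalein at 20 µM SCD and ACLY fell and ACSS2 and ELOVL6 rose. They read 5′ to 3′ on the strand of the gene, and capitals mark a CCAAT box on either strand (CCAAT or ATTGG). The positions are chr10:100346983-100347123 for SCD (plus), chr17:41919023-41919272 for ACLY (minus), chr20:34874739-34874941 for ACSS2 (plus) and chr4:110198677-110198841 for ELOVL6 (minus).
SCD: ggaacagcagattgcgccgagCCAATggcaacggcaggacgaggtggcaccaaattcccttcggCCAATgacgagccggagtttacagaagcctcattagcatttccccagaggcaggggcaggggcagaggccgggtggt
ACLY: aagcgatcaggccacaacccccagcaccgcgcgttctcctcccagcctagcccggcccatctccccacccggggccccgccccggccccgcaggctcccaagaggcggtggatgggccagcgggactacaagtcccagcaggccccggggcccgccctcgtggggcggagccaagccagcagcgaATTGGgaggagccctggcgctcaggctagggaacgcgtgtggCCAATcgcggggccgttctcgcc
ACSS2: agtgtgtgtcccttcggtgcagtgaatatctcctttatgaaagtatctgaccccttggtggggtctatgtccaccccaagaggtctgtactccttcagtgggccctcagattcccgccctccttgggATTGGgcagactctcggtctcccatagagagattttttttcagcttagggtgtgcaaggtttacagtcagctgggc
ELOVL6: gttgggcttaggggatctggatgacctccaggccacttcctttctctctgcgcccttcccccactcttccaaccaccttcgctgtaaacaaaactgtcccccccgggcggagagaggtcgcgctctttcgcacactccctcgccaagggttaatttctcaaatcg
The SCD stretch holds 2 CCAAT boxes, the ACLY stretch 2, the ACSS2 stretch 1 and the ELOVL6 stretch 0. Another ACSS2 window (chr20:34876362-34876611), not shown, holds 0. Of the genes not shown, FADS1 and each FADS2 window held 0, and ELOVL5 and THRSP held 2 each. The ACACA windows held 0, 1 and 2. With baicalein at 20 µM FADS1 rose, whereas FADS2, ACACA, ELOVL5 and THRSP fell. A link of box number to direction was not tested. A CCAAT box was present in 8 of the 14 windows, against 32% of 35116 windows of the same length. The 14 windows are not independent, since those of a gene can overlap, as the ACLY windows do, and by gene 6 of 9 had a CCAAT box. The GC box GGGCGG was present in 10 of 14, against 42.6% of all windows, and the E-box CACGTG in 1 of 14, against 6.34%. The core of the sterol regulatory element, TCACNCCAC, was found in 0 of 14 windows and in 0.883% of all windows. Both strands were searched for each motif, and a match or its absence describes only the letters of these windows.

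Library totals lay between 10013567 and 18445711 counts. Together the 10 genes took 0.717 ± 0.0295% of the counts with genistein 20 µM and 0.253 ± 0.0273% with baicalein 20 µM, against 0.467 ± 0.0153% in untreated LNCaP (SD, n = 3 each). They took 0.205 ± 0.0058% in untreated PC-3. Mitochondrially encoded genes took 12.5 ± 1.97% of the counts with baicalein 20 µM, against 5.09 ± 0.382% in untreated LNCaP. The summed level of 8 androgen-responsive luminal markers, including KLK3, lay between 660.2 and 793 CPM (counts scaled to a common library total) with baicalein 20 µM and between 2699 and 2743 CPM with genistein 20 µM, against 4105 to 4455 CPM in untreated LNCaP. It lay between 373 and 401 CPM in PC-3, where 6 PC-3 identity markers such as VIM and CAV1 summed to 2736 to 3028 CPM, against 7.30 to 7.40 CPM in untreated LNCaP. Stromal and blood cell markers summed to at most 17.3 CPM in each library. In bulk libraries, fewer cells of a type and less RNA per cell cannot be told apart.

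Divided by exon length, levels in untreated LNCaP spanned from 0.461 ± 0.128 CPM per kb for THRSP to 313 ± 43.8 CPM per kb for ELOVL5. SCD stood at 254 ± 14.9 CPM per kb, and its libraries overlapped those of ELOVL5. FASN (72.2 ± 3.99 CPM per kb) and ACLY (65.4 ± 3.36 CPM per kb) followed and overlapped each other. ACACA, FADS2 and FADS1 had nearly the same level per length, 20.8, 20.7 and 19.7 CPM per kb, each overlapping its neighbour. ACSS2 (12.9 ± 0.236 CPM per kb) and ELOVL6 (2.81 ± 0.254 CPM per kb) were lower, with no overlap between neighbours from FADS1 down. With genistein 20 µM the order was SCD (507 ± 20.1 CPM per kb), ELOVL5, FASN, ACLY, ACSS2, FADS1, FADS2, ACACA, ELOVL6 and THRSP, so that ACSS2 and FADS1 stood above ACACA, their libraries overlapping each other but not those of ACACA. With baicalein 20 µM the libraries of ACACA (6.98 ± 1.16 CPM per kb) and ELOVL6 (6.02 ± 0.872 CPM per kb) overlapped, whereas in untreated LNCaP they stood apart at 20.8 and 2.81 CPM per kb. The libraries of a group agreed within a coefficient of variation of 21.1% for every gene except ELOVL5, where it ran from 14.0 to 36.0% over the 5 LNCaP groups, and THRSP, where it ran from 9.26 to 94.9%.

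**Figure D1:**
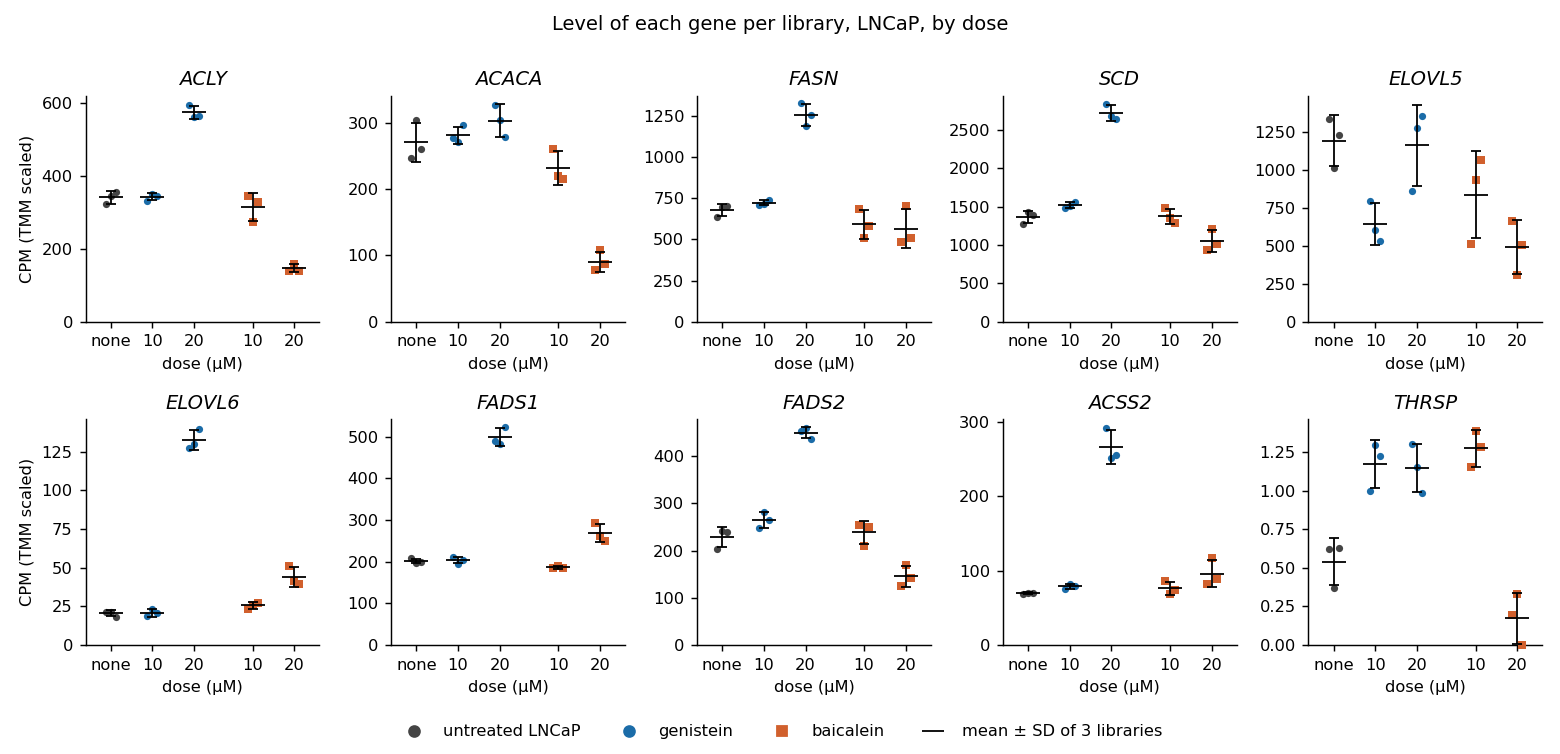
Level of each gene in every LNCaP library, in CPM on a linear axis from 0, by dose in µM ("none" marks untreated LNCaP), with circles for genistein, squares for baicalein and bars for the mean ± SD of 3 libraries. The genistein 20 µM libraries stand above all others for FASN, SCD, ELOVL6, FADS1, FADS2, ACSS2 and ACLY, and the 10 µM libraries lie near the untreated ones for most genes.

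With genistein at 20 µM, 7 of the 10 genes rose against untreated LNCaP and 0 fell. ELOVL6 rose most, 6.45-fold, followed by ACSS2 (3.83-fold), FADS1 (2.47-fold), SCD (1.99-fold), FADS2 (1.97-fold), FASN (1.86-fold) and ACLY (1.68-fold). ACACA, ELOVL5 and THRSP were not called. Of all 16985 genes tested, 8.31% rose and 8.12% fell. Of 2791 calls in all, 1661 were made without untreated replicate 2 and between 1679 and 1938 without each of the other 5 libraries, and the higher calls dropped to 704 and 701 without untreated replicate 2 or 3, against 1412. The median log2 fold change was 0.99 over the 10 genes and 0.05 over all genes. Calls were made at an adjusted p under 0.05 with edgeR's quasi-likelihood test, adjusted by the Benjamini-Hochberg method over all genes, and the 7 calls stood without any single library of the compared groups and under each other alternative that was run. The split of all genes was 1412 higher and 1379 lower, against 628 and 1739 when libraries were scaled by total counts only, which moved the median of all genes to -0.09, and 1076 and 1685 without the mitochondrially encoded genes.

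Both sources of acetyl-CoA rose with genistein 20 µM. ACLY stood at 596, 562 and 565 CPM in the genistein libraries, against 322, 345 and 357 CPM in untreated LNCaP. The groups did not overlap, and the log2 fold change was 0.75 ± 0.10 (SE, adjusted p = 4.95e-04). ACSS2 stood at 293, 252 and 256 CPM, against 68.2, 70.4 and 70.3 CPM in untreated LNCaP. Each genistein library exceeded every untreated one more than 3-fold (log2 fold change 1.94 ± 0.14, adjusted p = 2.93e-06).

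The enzymes of chain assembly differed among themselves. FASN stood at 1324, 1189 and 1252 CPM with genistein 20 µM, against 633, 697 and 699 CPM in untreated LNCaP (log2 fold change 0.89 ± 0.14, adjusted p = 0.00136). ACACA, the carboxylase that supplies FASN with malonyl-CoA, stood at 328, 304 and 279 CPM, against 247, 304 and 261 CPM. Its groups overlapped, and its log2 fold change was 0.16 (95% interval -0.13 to 0.46, adjusted p = 0.454). Because both enzymes were read in the same libraries, their ratio needs no scaling between libraries. The ACACA to FASN ratio of counts was 0.242 ± 0.0171 with genistein 20 µM, against 0.400 ± 0.0325 in untreated LNCaP, and the libraries did not overlap. THRSP had 15, 17 and 15 counts, against 12, 6 and 11 counts, and did not overlap in CPM (log2 fold change 1.06, interval 0.27 to 1.85 before adjustment, adjusted p = 0.0637).

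Among elongases and desaturases, ELOVL6 stood at 128, 130 and 139.7 CPM with genistein 20 µM, against 21.6, 21.6 and 18.4 CPM in untreated LNCaP (log2 fold change 2.69 ± 0.13, adjusted p = 1.28e-07). The libraries of each group lay within a narrow band, far from those of the other group. SCD, the most abundant of the 10 per length with genistein, stood at 2841, 2676 and 2639 CPM, against 1273, 1423 and 1395 CPM (1.00 ± 0.10, adjusted p = 6.63e-05). FADS1 stood at 490.1, 483 and 525 CPM, against 208, 197 and 200.4 CPM (1.31 ± 0.09, adjusted p = 2.65e-06), and FADS2 at 453, 458 and 436 CPM, against 204, 241 and 239 CPM (0.98 ± 0.13, adjusted p = 3.01e-04). No genistein library of these 4 genes fell within the untreated range, but the share of all genes without overlap was not counted. ELOVL5 stood at 861, 1277 and 1358 CPM, against 1339, 1011 and 1231 CPM, and its groups overlapped. Its log2 fold change was -0.04 with an interval of -0.70 to 0.63 (adjusted p = 0.955), which spans 0.617 to 1.54 times the untreated level.

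**Figure D2:**
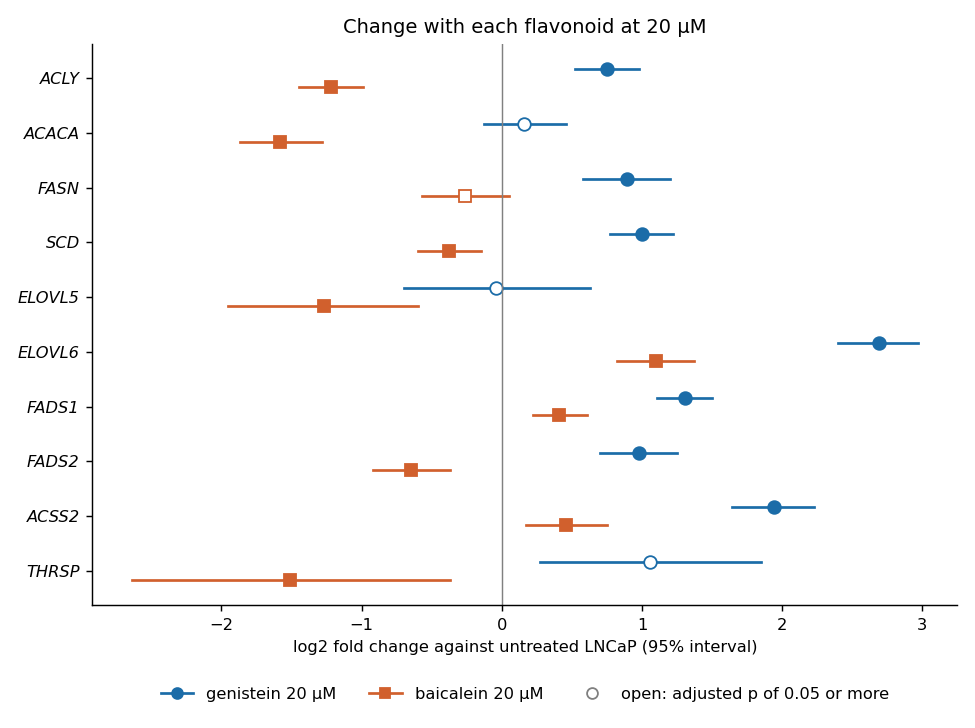
Log2 fold change of each gene against untreated LNCaP with 95% intervals, circles for genistein 20 µM and squares for baicalein 20 µM, with open symbols where the adjusted p is 0.05 or more. ELOVL6, FADS1 and ACSS2 lie right of 0 with either flavonoid, whereas ACLY, SCD and FADS2 lie right of 0 with genistein and left of 0 with baicalein.

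With baicalein at 20 µM the same 10 genes moved in both directions. Against untreated LNCaP, 6 fell and 3 rose, and FASN was not called. ACACA fell most among the well-counted genes, 2.98-fold, followed by ELOVL5 (2.42-fold), ACLY (2.33-fold), FADS2 (1.57-fold) and SCD (1.30-fold). ELOVL6 rose 2.14-fold, ACSS2 1.38-fold and FADS1 1.33-fold. Of all genes 29.4% rose and 27.8% fell, so 57.2% were called in this comparison. The 3 rises among the 10 are near the share of rises over all genes. The median log2 fold change was -0.51 over the 10 genes and 0.04 over all genes. Both drug comparisons share the 3 untreated libraries.

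The mitochondrially encoded share was highest in these libraries (12.5 ± 1.97% with baicalein 20 µM, against 5.09 ± 0.382% in untreated LNCaP), and leaving those genes out changed no call of the 10. The summed luminal markers were also lowest in these libraries among the LNCaP groups, at 660.2 to 793 CPM, against 4105 to 4455 CPM in untreated LNCaP. Their part in these results was not tested. Scaling by total counts alone moved the median of all genes to -0.25, and the split of all calls to 3286 higher and 6215 lower, against 4992 and 4716. The estimates of FADS1 (0.12, adjusted p = 0.358) and ACSS2 (0.18, adjusted p = 0.400) were then no longer called, and FASN was called lower (-0.55, adjusted p = 0.0193). None of the 10 genes changed direction under an alternative where it was called.

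The acetyl-CoA sources parted with baicalein 20 µM. ACLY stood at 139, 159 and 140.3 CPM, against 322, 345 and 357 CPM in untreated LNCaP (log2 fold change -1.22 ± 0.11, adjusted p = 7.89e-07), and every baicalein library lay under the untreated ones. ACSS2 stood at 82.4, 117 and 88.8 CPM, against 68.2, 70.4 and 70.3 CPM (0.46 ± 0.13, adjusted p = 0.00955). Here every baicalein library lay above the untreated ones, with replicate 2 the highest. Taken as a ratio of counts within a library, ACSS2 over ACLY was 0.653 ± 0.0737 with baicalein 20 µM and 0.464 ± 0.0236 with genistein 20 µM, against 0.204 ± 0.00722 in untreated LNCaP. With 10 µM the ratio was 0.2304 ± 0.00472 for genistein and 0.244 ± 0.0141 for baicalein, also above each untreated library.

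ACACA stood at 78.3, 108 and 86.6 CPM with baicalein 20 µM, against 247, 304 and 261 CPM in untreated LNCaP (log2 fold change -1.58 ± 0.14, adjusted p = 8.90e-07). FASN stood at 485, 702 and 506 CPM, against 633, 697 and 699 CPM (-0.26 ± 0.14, interval -0.57 to 0.05, adjusted p = 0.136). Baicalein replicate 2 stood apart for FASN, and without it the estimate was -0.44 with an adjusted p of 0.00704. The ACACA to FASN ratio of counts was 0.162 ± 0.00884 with baicalein 20 µM, against 0.400 ± 0.0325 in untreated LNCaP. THRSP had 2, 4 and 0 counts, against 12, 6 and 11 counts (-1.51 ± 0.53, adjusted p = 0.0225). That call ended without untreated replicate 1 (adjusted p = 0.0599) or 3 (0.0588) and without baicalein replicate 1 (0.0511) or 3 (0.134), and without baicalein replicate 2 the estimate was -2.33.

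ELOVL6 stood at 51.2, 41.1 and 39.4 CPM with baicalein 20 µM, against 21.6, 21.6 and 18.4 CPM in untreated LNCaP (log2 fold change 1.10 ± 0.13, adjusted p = 9.38e-06). ELOVL5, the other elongase, stood at 666, 311 and 504 CPM, against 1339, 1011 and 1231 CPM (-1.27 ± 0.31, adjusted p = 0.00358), with the widest spread of the 10 genes among the baicalein libraries apart from THRSP. SCD stood at 930.1, 1204 and 1013 CPM, against 1273, 1423 and 1395 CPM (-0.38 ± 0.10, adjusted p = 0.00718). The SCD groups came close to each other, and its adjusted p was 0.0666 when only the 6 libraries compared entered the fit.

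The neighbours FADS1 and FADS2 moved in opposite directions. FADS1 stood at 294, 263 and 249.9 CPM with baicalein 20 µM, against 208, 197 and 200.4 CPM in untreated LNCaP (log2 fold change 0.41 ± 0.09, adjusted p = 0.00160). FADS2 stood at 126, 169.7 and 142 CPM, against 204, 241 and 239 CPM (-0.65 ± 0.13, adjusted p = 7.36e-04). The FADS1 to FADS2 ratio of counts was 2.34, 1.55 and 1.77 in the baicalein 20 µM libraries and 1.082, 1.053 and 1.202 in the genistein 20 µM libraries, against 1.02, 0.816 and 0.838 in untreated LNCaP. Libraries given either flavonoid at 20 µM lay above the untreated ones without overlap, and at 10 µM they overlapped. An exact two-sided permutation test gave p = 0.1 for each of the ratios at 20 µM named here, the smallest that 3 against 3 libraries allow, with an adjusted p of 0.139 over 25 such comparisons.

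**Figure D3:**
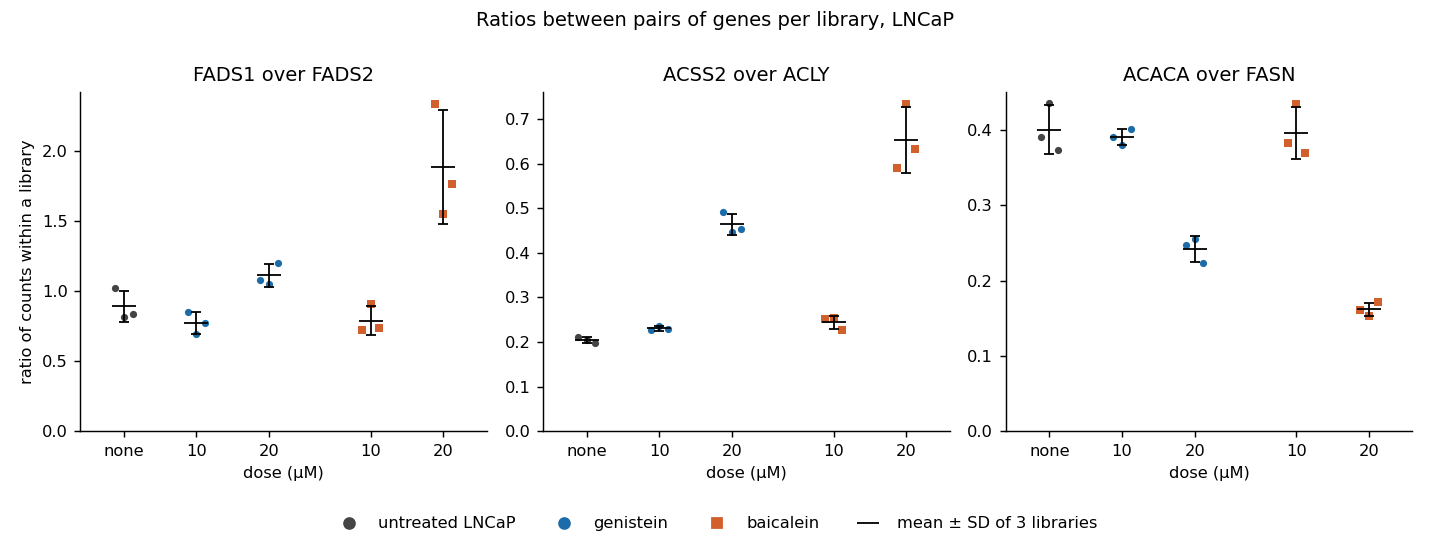
Ratio of counts within each LNCaP library for FADS1 over FADS2, ACSS2 over ACLY and ACACA over FASN, on linear axes from 0, by dose in µM ("none" marks untreated LNCaP), with bars for the mean ± SD of 3 libraries. At 20 µM of either flavonoid the first pair of ratios stands above and the last stands under the untreated libraries, with the baicalein libraries farther away.

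At 10 µM neither flavonoid gave a call among the 10 genes. With genistein 10 µM, 0 of 10 passed against untreated LNCaP, where 0.112% of all genes did (0.0353% higher and 0.0765% lower). With DESeq2 0 of the 10 were called. Before adjustment 2 of the 10 passed 0.05, as did 1458 of all 16985 genes. The 2 were ELOVL5 at 797, 604 and 535 CPM, against 1339, 1011 and 1231 CPM (log2 fold change -0.89, adjusted p = 0.473), and THRSP with 13, 23 and 16 counts, against 12, 6 and 11 (1.10, adjusted p = 0.451). For 8 of the 10 genes the 95% interval lay within 2-fold of the untreated level in either direction, against 70.6% of all genes. ELOVL6, which rose most at 20 µM, stood at 18.5, 23.1 and 20.7 CPM (0.02, interval -0.26 to 0.29).

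With baicalein 10 µM, 0 of 10 genes passed, where 0.4% of all genes did (0.0883% higher and 0.312% lower). With DESeq2 0 of the 10 were called. Before adjustment 2 of the 10 passed 0.05, as did 1907 of all 16985 genes. ELOVL6 stood at 23.1, 26.2 and 27.4 CPM, against 21.6, 21.6 and 18.4 CPM in untreated LNCaP, so its groups did not overlap, yet its adjusted p was 0.363 (log2 fold change 0.32, interval 0.04 to 0.59 before adjustment). THRSP had 13, 16 and 14 counts, against 12, 6 and 11 (1.21, adjusted p = 0.218). The interval lay within 2-fold for 8 of the 10 genes, against 72% of all genes.

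The step from 10 to 20 µM was tested for each flavonoid. With genistein, 7 genes were higher at 20 than at 10 µM and 0 were lower, where 5.59% of all genes were higher and 7.63% lower (950 and 1296, against 590 and 1716 scaled by total counts alone). ELOVL6 was 6.37-fold higher (adjusted p = 1.75e-07) and ACSS2 3.38-fold (7.59e-06). ELOVL5 stood at 861, 1277 and 1358 CPM at 20 µM, against 797, 604 and 535 CPM at 10 µM, without overlap (log2 fold change 0.85, adjusted p = 0.0884), and was called once the trend with GC content and length was removed (0.63, adjusted p = 0.0463). With baicalein, 5 genes were lower at 20 than at 10 µM (ACACA 2.55-fold, ACLY 2.15-fold, FADS2 1.64-fold, SCD 1.31-fold and THRSP 6.59-fold) and 2 were higher (ELOVL6 1.72-fold and FADS1 1.44-fold), where 54.4% of all genes were called, 27.5% lower and 26.8% higher (4679 and 4556, against 5786 and 3326 scaled by total counts alone). The 2 higher genes in the baicalein step are near the share over all genes. The SCD estimate was not called with only the groups compared in the fit (adjusted p = 0.141). ELOVL5 (-0.76, adjusted p = 0.0509) and ACSS2 (0.32, adjusted p = 0.0556) stood next to the threshold, and several alternatives called them.

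Genistein and baicalein, the only pair of isomers, were compared at both matched doses. At 20 µM all 10 genes were higher with genistein, where 48.7% of all genes were called, 25.4% higher and 23.3% lower. Scaled by total counts alone, 5049 genes were higher and 3020 lower, against 4316 and 3962. The differences ran from 0.89 on the log2 scale for FADS1 (1.86-fold, adjusted p = 5.71e-06) to 1.97 for ACLY (3.93-fold, adjusted p = 4.14e-08) and 2.56 for THRSP (5.91-fold, adjusted p = 6.70e-04), which was 3.39 without baicalein 20 µM replicate 2. ELOVL5 had the highest adjusted p, 0.00531, with 861, 1277 and 1358 CPM with genistein, against 666, 311 and 504 CPM with baicalein. ACACA, not called between genistein and untreated cells, averaged 303 ± 24.4 CPM in genistein libraries and 90.8 ± 15.1 CPM in baicalein libraries (3.34-fold, adjusted p = 8.13e-07). Every genistein library exceeded every baicalein library for each of the 10 genes, but the share of all genes without overlap was not counted.

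At 10 µM the isomers differed in 0 of 10 genes, where 0.00589% of all genes differed. With DESeq2 0 of the 10 were called. Before adjustment 1 of the 10 passed 0.05, as did 1312 of all 16985 genes. That 1 was ELOVL6 at 18.5, 23.1 and 20.7 CPM with genistein, against 23.1, 26.2 and 27.4 CPM with baicalein (log2 difference -0.30, interval -0.57 to -0.03 before adjustment, adjusted p = 0.638). For 9 of the 10 genes the 95% interval excluded a difference of more than 2-fold, against 68.2% of all genes. FASN had a difference of 0.29 (interval -0.02 to 0.60) and SCD of 0.15 (interval -0.08 to 0.37). The interval of ELOVL5, -1.04 to 0.28, reached past 2-fold, and that of THRSP was -0.86 to 0.63.

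**Figure D4:**
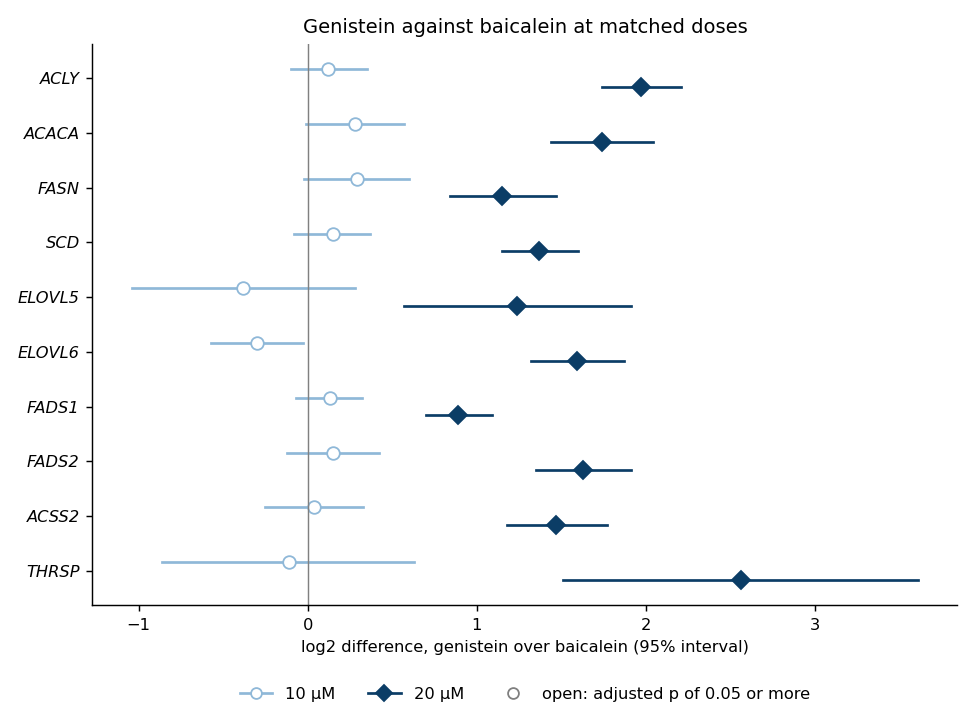
Log2 difference of each gene between genistein and baicalein at 10 µM (circles) and 20 µM (diamonds) with 95% intervals, with open symbols where the adjusted p is 0.05 or more. At 20 µM all 10 lie right of 0, between 0.89 and 2.56, and at 10 µM all lie between -0.38 and 0.29 with none called.

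The drug by dose interaction, which sets the rise of genistein from 10 to 20 µM against that of baicalein, was positive and called for all 10 genes. Of all genes 32.8% were called, 17.3% positive and 15.5% negative. It ran from 0.77 for FADS1 to 2.68 for THRSP, the last being 3.51 without baicalein 20 µM replicate 2. For ELOVL6 it was 1.89 ± 0.18 (adjusted p = 1.01e-05), although ELOVL6 was higher at 20 than at 10 µM with either flavonoid, 132 ± 6.45 against 20.8 ± 2.31 CPM with genistein and 43.9 ± 6.36 against 25.6 ± 2.23 CPM with baicalein.

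In untreated PC-3, ACLY, ACACA, FASN, SCD, ELOVL5 and ELOVL6 were lower than in untreated LNCaP, and FADS1, FADS2 and ACSS2 were higher. Of 9 genes tested, 6 were lower and 3 higher, where 74.9% of 17259 genes were called, 37.9% lower and 37% higher. The count of higher genes is near its share over all genes. ACACA was lowest relative to LNCaP, at 28.3, 34.3 and 32.3 CPM in PC-3, against 239, 297 and 254 CPM in LNCaP (8.31-fold lower, adjusted p = 2.69e-06). FASN stood at 132, 140.9 and 152 CPM, against 611, 681 and 680.3 CPM (4.64-fold lower, adjusted p = 3.49e-06). SCD was 2.34-fold lower (566 ± 27.4 CPM in PC-3 and 1326 ± 85.4 CPM in LNCaP), ELOVL6 2.28-fold (8.75 ± 0.796 and 19.9 ± 1.79 CPM), ACLY 2.05-fold (162 ± 17.6 and 332 ± 18.6 CPM) and ELOVL5 2.01-fold (578 ± 182 and 1160.2 ± 156 CPM). The libraries of the lines did not overlap for any of these genes, and the share of all genes without overlap was not counted.

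ACSS2 stood at 108, 121 and 137 CPM in PC-3, against 65.8, 68.8 and 68.5 CPM in LNCaP (1.80-fold higher, adjusted p = 4.53e-04). FADS2 stood at 332, 393 and 411 CPM, against 197, 236 and 233 CPM (1.71-fold higher, adjusted p = 0.00113). FADS1 stood at 299, 282 and 259 CPM, against 201, 192 and 195 CPM (1.43-fold higher, adjusted p = 0.00227), a call that ended when libraries were scaled by total counts alone (0.23, adjusted p = 0.0771). The ACSS2 to ACLY ratio of counts was 0.7601 ± 0.107 in PC-3, against 0.204 ± 0.00722 in LNCaP, without overlap. The SCD to FASN ratio was 4.001 ± 0.2016, against 2.02 ± 0.0238, also without overlap, whereas that of FADS1 to FADS2 overlapped (0.749 ± 0.137 and 0.892 ± 0.112). THRSP had 0 counts in the 3 PC-3 libraries and 29 counts over the 3 LNCaP libraries. Scaled by total counts, the LNCaP level was 6.72 times a floor of 3 counts over the PC-3 group. The floor covers counting error in PC-3 only, not that of the 29 LNCaP counts.

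**Figure D5:**
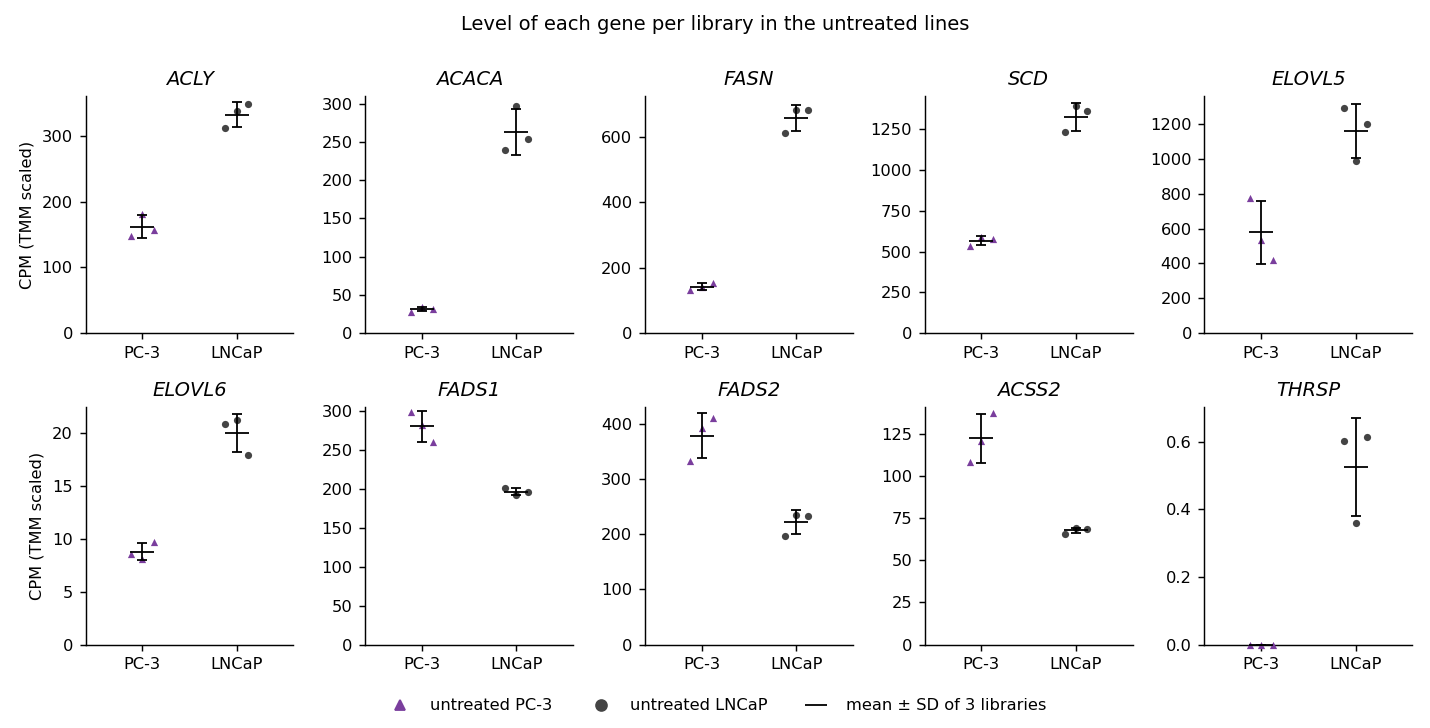
Level of each gene in every untreated library of PC-3 (triangles) and LNCaP (circles), in CPM on linear axes from 0, with bars for the mean ± SD of 3 libraries. ACACA and FASN stand far lower in PC-3, FADS1, FADS2 and ACSS2 stand higher, and THRSP is at 0 in PC-3.

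Across the 15 LNCaP libraries the 9 genes with a mean of at least 5 CPM, all but THRSP, were compared pair by pair. Pearson's r of log2(CPM + 1) was 0.97 between ELOVL6 and FADS1, 0.95 between ELOVL6 and ACSS2, 0.97 between SCD and FADS2 and 0.96 between ACLY and FADS2. It was -0.02 between ELOVL6 and ACACA and 0.56 between FADS1 and FADS2. These libraries fall into 5 groups, so r describes mostly how group means run together, and no p is given. Among 11298 genes with a mean of at least 5 CPM, those most like FASN were AHNAK (0.98), SCD (0.96), GAS6-AS1 (0.96), SLC17A5 (0.95) and ESYT1 (0.94). Those most like SCD were AHNAK (0.98), SLC17A5 (0.98), NOS3 (0.97), FADS2 (0.97) and FASN (0.96). Those most like ELOVL6 were FADS1 (0.97), ACAT2 (0.95), FDFT1 (0.95), ACSS2 (0.95) and CYP51A1P2 (0.94).

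Other genes of the pathway were counted by list, each named gene being among the smallest p of its list or, where marked, chosen after its values were seen. Each count is to be read against the shares over all genes, 8.31% higher and 8.12% lower with genistein 20 µM and 29.4% higher and 27.8% lower with baicalein 20 µM. The baicalein counts of the lists of regulators, of elongation and desaturation and of citrate and NADPH supply are near those shares. So are the baicalein rises among further synthesis and glycerolipid genes and the baicalein falls among genes of the AMP-activated kinase. Of 11 regulators of these enzymes, 4 rose and 1 fell with genistein 20 µM (median log2 fold change 0.22, against 0.05 over all genes) and 3 rose and 2 fell with baicalein 20 µM (-0.03, against 0.04). INSIG1, which holds the SREBP precursors in the endoplasmic reticulum, had 1639, 2042 and 2361 CPM in the genistein libraries and 2816, 465 and 2128 CPM in the baicalein libraries, against 219.8, 238 and 278 CPM in untreated LNCaP. Its baicalein libraries differed 6-fold among themselves, though all lay above the untreated ones. INSIG2 and the oxysterol receptor NR1H2 were the other shared rises. The INSIG2 rise with baicalein was close to the threshold (0.33, adjusted p = 0.0357). With the GC and length trend removed INSIG2 was called with neither drug (adjusted p = 0.144 with genistein and 0.933 with baicalein). SREBF1, which encodes SREBP-1, fell with baicalein to 85.6 ± 9.40 CPM, against 136 ± 9.37 CPM (adjusted p = 1.55e-04), and stood at 113 ± 2.03 CPM with genistein (adjusted p = 0.108), where it was called lower by DESeq2 (-0.32, adjusted p = 0.0125) and without mitochondrially encoded genes (-0.32, adjusted p = 0.0411). Named after their values were seen, SREBF2 rose and SCAP fell with genistein, each close to the threshold (adjusted p = 0.0343 and 0.0412), and MBTPS2 fell with baicalein (2.34-fold).

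Of 10 tested genes of elongation and desaturation outside the 10, 3 rose with genistein 20 µM, and 3 rose and 3 fell with baicalein 20 µM (medians 0.24 and -0.25). FADS3 (1.46-fold and 2.42-fold), the dehydratase HACD1 (2.68-fold and 3.29-fold) and the reductase TECR (1.44-fold and 1.28-fold) rose with genistein and with baicalein. HACD1 had few counts, 20, 24 and 19 with genistein 20 µM and 26, 19 and 15 with baicalein 20 µM. In untreated LNCaP it had 10, 7 and 13 counts. HACD2 fell 1.49-fold with baicalein, as did HACD3 (3.45-fold) and SCD5 (1.64-fold), named after their values were seen. Of 7 further synthesis genes, 1 rose with genistein, and 2 rose and 4 fell with baicalein (medians -0.14 and -0.71). MID1IP1, a relative of THRSP that promotes ACACA polymerization, rose 1.42-fold with genistein and fell 1.63-fold with baicalein, ACACB, MECR and MLYCD fell with baicalein, and OXSM and, named after its value was seen, MCAT rose.

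Of 8 genes of citrate and NADPH supply, 4 rose with genistein, and 2 rose and 2 fell with baicalein (medians 0.70 and 0.03). PGD rose 2.13-fold and 1.59-fold and ME1 1.90-fold and 1.68-fold, both with genistein and with baicalein, whereas ACO1 was 1.28-fold higher with genistein and 1.99-fold lower with baicalein, and IDH1 rose with genistein. Of 8 genes of glycerolipid assembly and lipid droplets, 2 rose and 1 fell with genistein, and 2 rose and 4 fell with baicalein (medians 0.40 and -0.59). DGAT2, which completes triglycerides, fell to 30.7 ± 2.22 CPM with genistein and to 4.402 ± 0.8318 CPM with baicalein, against 47.5 ± 2.32 CPM in untreated LNCaP, while LPIN1 (3.35-fold and 2.52-fold) and AGPAT2 (1.71-fold and 2.05-fold) rose. AGPAT1 fell with baicalein, as did DGAT1 and GPAM, named after their values were seen. Of 6 acyl-CoA synthetases, 2 rose with genistein (ACSL4 4.15-fold and ACSL1 1.99-fold), and 3 fell with baicalein (ACSM3, ACSF2 and ACSL6), with medians of -0.14 and -0.99.

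Of 18 fatty acid oxidation genes, 1 fell with genistein (CPT1B, 2.97-fold) and 11 fell with baicalein, among them CPT2 (3.29-fold), AMACR (2.98-fold), ACADS (2.71-fold) and HADHB (1.41-fold), with medians of 0.08 and -0.60. HADHB had an adjusted p of 0.0510 with genistein, and ACAA2 stood at 4.48 ± 0.203 CPM with genistein, against 3.45 ± 0.456 CPM (adjusted p = 0.159). Of 6 genes of fatty acid uptake and binding, edgeR called 0 with genistein, as did DESeq2. With genistein 0 had an unadjusted p under 0.05, against 5170 of all 16985 genes. SLC27A4 was, however, called higher with genistein after correction for GC content and length (0.28, adjusted p = 0.0175). With baicalein 4 fell (SLC27A2 5.47-fold, SLC27A1, VLDLR and SLC27A4), and the medians were 0.24 and -0.74. Of 8 genes of the AMP-activated kinase and its upstream kinases, 2 rose with genistein (PRKAG2 and PRKAG1), and 4 rose and 2 fell with baicalein (medians -0.05 and 0.43). PRKAB1 rose 1.78-fold and PRKAG2 1.75-fold with baicalein, and CAMKK2 fell 1.80-fold. PRKAB2 and STK11 rose and PRKAA1 fell with baicalein, named after their values were seen.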

How the data were processed

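RNA from 18 libraries of 2 prostate cancer lines was read from 1 deposited table of raw counts per gene, whole numbers that were not normalized. GRCh38 is the build, and STAR 2.7.6a, fastp, DESeq2 1.20.0 and featureCounts 1.6.4 are the tools named, without their roles, per the submitters' processing notes. Strandedness in counting and the gene annotation are not given in the sources used here. Of the table's columns, 18 FPKM columns were not used, because 6 headers name baicalein at 20 µM and 0 name 10 µM. The authors' 13 comparisons were left out too, since the codes of their groups could not be read.

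Count columns were assigned by cell line, drug, dose and replicate in their headers. Library pairs within a group differed beyond sampling noise (chi-square per degree of freedom 12.01 to 97.6 over 18 pairs). Counts were scaled by TMM in edgeR 4.0.16 (R 4.3.3), filtered with its default for low counts and tested with robust quasi-likelihood fits. All 15 LNCaP libraries entered 1 fit (16985 genes, 10 residual degrees of freedom, biological coefficient of variation 0.235), and the 6 untreated libraries another (17259 genes, 4 degrees of freedom, 0.208), so CPM of untreated LNCaP differ slightly between them. THRSP did not pass the filter in the second fit. For each comparison, P-values were adjusted over all genes (Benjamini-Hochberg), with calls at 0.05. Standard errors come from dividing the unshrunken log2 fold change by the root of its F statistic. The fit was tested on simulated counts. Exon lengths, GC content and overlaps came from GENCODE 29, which matched 58228 identifiers, and promoters from RefSeq, with no FASN entry matched. The table held no gene lengths, so levels per length rest on GENCODE.

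The rule for named genes takes all 10 members, and from each list the 3 genes with the smallest p at 20 µM of each drug. The members and lists were chosen with earlier results of these data known. Alternatives were DESeq2 1.42.0, other scalings, no low-count filter, only the groups compared, a replicate block, removal of mitochondrially encoded genes, removal of the GC and length trend, and each library left out. Reads carry no molecular identifiers, so floors cover counting error only. Some genes of the lists are not reported here by name.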

Additional observations from a re-analysis of the deposited data

Results flagged for a closer look

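For each of the 10 genes the change between 10 and 20 µM differed between genistein and baicalein, by the interaction term of edgeR's quasi-likelihood fit. On the log2 scale, the difference (genistein change minus baicalein change) was 1.85 for ACLY, 1.46 for ACACA, 0.86 for FASN, 1.23 for SCD, 1.62 for ELOVL5, 1.89 for ELOVL6, 0.77 for FADS1, 1.48 for FADS2, 1.43 for ACSS2 and 2.68 for THRSP. Adjusted p-values ran from 3.22e-06 for ACLY to 0.0127 for ELOVL5, and 5575 of 16985 genes, or 32.8%, had a called interaction.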

How the results depend on the processing

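Of 1436 values of the 10 genes under alternatives, 1414 kept their side of the threshold, 9 calls ended, 13 were gained, and 0 called values changed direction. The count of genes called stayed at 7 with genistein 20 µM and at 10 for the isomers at 20 µM and for the interaction. With baicalein 20 µM it ran from 8 to 10 with a library left out and from 7 to 9 otherwise, against 9. For the baicalein step it ran from 7 to 9 and from 6 to 9, against 7, and for PC-3 it stayed at 9 with a library left out and ran from 8 to 10 otherwise. ACSS2 was called in the baicalein step with RLE scaling (adjusted p = 0.0438), DESeq2 (0.0482) and the GC and length trend removed (6.00e-05), and ELOVL5 with total counts (0.00592), DESeq2 (0.0400) and that trend removed (0.00401). Without baicalein 10 µM replicate 1 both were called (0.0296 and 0.0112), as without baicalein 20 µM replicate 1 (0.0190 and 0.0195). The replicate block changed no call of the 10 genes. Deviations of same-numbered libraries from their group means had r between -0.358 and 0.228 over the pairs of groups compared. For genistein 20 µM and untreated r was -0.179, -0.047 and -0.05, and for baicalein 20 µM and untreated 0.228, 0.207 and -0.001. For genistein 10 µM and untreated all were positive, at 0.138, 0.007 and 0.012. Whether the numbers pair the libraries was not tested. With the replicate block 2193 genes were called with genistein 20 µM, against 2791.

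Counts over all genes moved by over 1.5 times at 10 µM, in the genistein step and, with a library left out, with genistein 20 µM (1661 to 1938, against 2791). At 10 µM, DESeq2 called 129 genes with genistein and 400 with baicalein, removal of the GC and length trend 59 and 215, and the replicate block 11 and 29, against 19 and 68. With only the groups compared, 9 were called with baicalein. With a library left out the counts ran from 10 to 16 and from 22 to 58. Between the isomers at 10 µM DESeq2 called 72, removal of the trend 3, and total counts, the replicate block and only the groups compared 0 each, against 1, with 0 to 3 when a library was left out. The genistein step had 3446 calls with the trend removed and from 1201 to 1777 with a library left out, against 2246. Of genes outside the 10, 14 of 21 calls with genistein 20 µM ended under some alternative (ACO1, ACSL1, CPT1B, FADS3, HACD1, IDH1, INSIG2, MID1IP1, NR1H2, PRKAG1, PRKAG2, SCAP, SREBF2 and TECR), as did 10 of 51 with baicalein 20 µM (ACAA1, GPAM, INSIG2, MCAT, MLYCD, PGD, PRKAA1, SLC27A4, STK11 and TECR). SREBF2, lower but not called with baicalein, turned direction and was called higher at 0.17 with the trend removed. Other calls gained with genistein were SREBF1, HADHB, CAMKK2, ACSL6, PRKAA1 and SLC27A4, and with baicalein CPT1B, ACSL4 and FABP5. A comparison with gene lengths deposited beside the counts was not run, because the table holds none. The low counts of THRSP and the spread of ELOVL5 limit what these libraries can show.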
